A study of Rattus norvegicus with 2 samples.

Results

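Genes of glutathione, thioredoxin and peroxide defence were read in lens epithelial cells (LECs) of 5-week-old Shumiya cataract rats (SCRs), in cataractous (Cat+) and noncataractous (Cat-) animals. The set was a list of 48 genes in 7 systems, chosen by function. Of these, 45 were measured by a probe set that names 1 gene, among 18166 genes on the array. *Ggt1* is not named in the annotation used here, and *Ggct* and *Gstt1* lie only on probe sets that also name a close relative. Cat+ stands for *Lss*s/*Lss*l rats, which carry the mutant *Lss*l allele of lanosterol synthase beside the polymorphic *Lss*s, while Cat- stands for *Lss*s/*Lss*s rats of the same strain with clear lenses. The strain also carries mutant alleles of *Fdft1*, and which of them each sample had is not given in the sources used here. Both samples were lens capsules with LECs from 2 eyes, hybridized to 1 GeneChip Rat Gene 2.0 ST array per group. No test was possible with 1 array per group, and the spread between animals is unknown. The number of animals and the chow given to each sample are not stated, and genotypes were set by PCR of tail DNA. Cat+ is set against Cat- to ask whether defence against oxidants differs at an age before the cataract is mature.

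The lens is exposed to light, its fiber cells hardly renew their proteins, and it is known for a high content of reduced glutathione, which is made and recycled mainly in the epithelium and outer cortex. Glutathione is built from glutamate, cysteine and glycine, is used by peroxidases to reduce hydrogen peroxide and lipid peroxides, is joined to toxic compounds by transferases, and is returned to its reduced form by glutathione reductase with NADPH. Peroxiredoxins reduce peroxides with electrons from thioredoxin, and thioredoxin reductase recharges thioredoxin. NRF2, encoded by *Nfe2l2*, is the transcription factor that turns on many of these genes through antioxidant response elements, and KEAP1 marks it for degradation.

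The signal is the normalized log2 value that the authors deposited for each probe set, and the fold change is Cat+ over Cat-. Its median over 29870 probe sets was 5.69 in Cat+ against 5.67 in Cat-, and no detection calls are given. As a yardstick, 291 genes were read by several probe sets, whose log2 differences scattered within a gene with an SD of 0.17. That spread holds no variation between animals, and no member had more than 1 such probe set. Of 10 measured markers of lens epithelium, 6 were higher and 4 lower in Cat+. All were less than 25% apart, counted from the dimmer sample. Log2 signals of *Foxe3* were 9.72 in Cat+ against 9.53 in Cat-, and those of *Pax6* were 10.03 in Cat+ against 9.87 in Cat-. *Itga6*, with the most negative difference of the list, had 7.26 in Cat+ against 7.52 in Cat-. All 14 measured markers of lens fiber cells were lower in Cat+, beside 51.2% of all genes. The median log2 difference of the 14 was -1.73. Their summed linear signal was 12303 in Cat+ against 26880 in Cat-. Several of them, among them *Lgsn*, *Mip*, *Bfsp1* and *Dnase2b*, were reported by the study as under 0.5-fold on these same arrays. Their direction was thus known when the list was made. In a sample of mixed cells, fewer cells of a type and less RNA per cell cannot be told apart.

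Antioxidant response elements are shown first, since NRF2 acts through them. Promoters from RefSeq on the build GRCr8, 250 bases before to 50 after each start site, were found for 38 of the 45 measured members. The core TGACNNNGC was searched on both strands. It lies in the promoters of 12 of these 38 genes, or 31.6%, and of 14.1% of the 14564 measured genes with a promoter entry. Counted by start site, 29.3% of 41 in the members and 13.3% of 16050 in the measured genes hold it, and 12.1% of all 33469 in the table do. A match to these letters is a description and not a binding site. The lines below give each match with up to 12 bases on either side, 5′ to 3′ on the strand of the gene, and capitals mark the core or, where it lies on the other strand, its complement GCNNNGTCA. Of the 13 matches, 2, in *Gstp1* and *Prdx1*, also hold the AP-1 site TGACTCA, whose complement is TGAGTCA.

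Gclm, chr2:213031951-213031983, plus strand: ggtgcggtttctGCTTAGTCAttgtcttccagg
Gpx2, chr6:101230026-101230058, minus strand: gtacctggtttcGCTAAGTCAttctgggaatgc
Gsta1, chr9:31216483-31216514, minus strand: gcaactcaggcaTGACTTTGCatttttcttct
Gstm5, chr2:198219644-198219676, plus strand: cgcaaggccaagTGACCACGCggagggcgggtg
Gstm5, chr2:198219704-198219736, plus strand: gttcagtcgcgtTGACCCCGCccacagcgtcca
Gstp1, chr1:210769746-210769778, minus strand: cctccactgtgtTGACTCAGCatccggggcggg
Msrb2, chr17:86882750-86882782, plus strand: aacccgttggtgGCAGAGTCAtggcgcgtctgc
Nfe2l2, chr3:81028950-81028973, minus strand: ccgactagccatTGACGCCGCctc
Prdx1, chr5:135383759-135383791, plus strand: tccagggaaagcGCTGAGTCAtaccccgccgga
Prdx4, chrX:43878740-43878772, plus strand: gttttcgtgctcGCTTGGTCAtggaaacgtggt
Prdx5, chr1:213532008-213532040, minus strand: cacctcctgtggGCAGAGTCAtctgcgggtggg
Sod2, chr1:50050183-50050215, minus strand: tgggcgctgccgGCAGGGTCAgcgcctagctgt
Txnrd1, chr7:22755962-22755994, minus strand: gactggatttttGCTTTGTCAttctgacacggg

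The genes shown include *Gclm* and *Txnrd1*, which make glutathione and recharge thioredoxin. Log2 signals of *Gclm* were 7.87 in Cat+ against 7.93 in Cat-, and those of *Txnrd1* were 6.87 in Cat+ against 6.88 in Cat-. Of the 12 genes with a match, 9 were lower and 3 higher in Cat+, with a median log2 difference of -0.06, though *Prdx5* and *Txnrd1* turned sign with the scaling. Of the 26 members without a match, 13 were lower and 13 higher, with a median of -0.004. Bases beyond the 250 before and 50 after the start site were not searched, so these genes may hold a match elsewhere. Among all 2058 measured genes with a match, 1073 were lower and 985 higher, with a median of -0.01. The 12 genes ran from -0.28 for *Gpx2* to 0.38 for *Nfe2l2* itself.

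**Figure D1:**
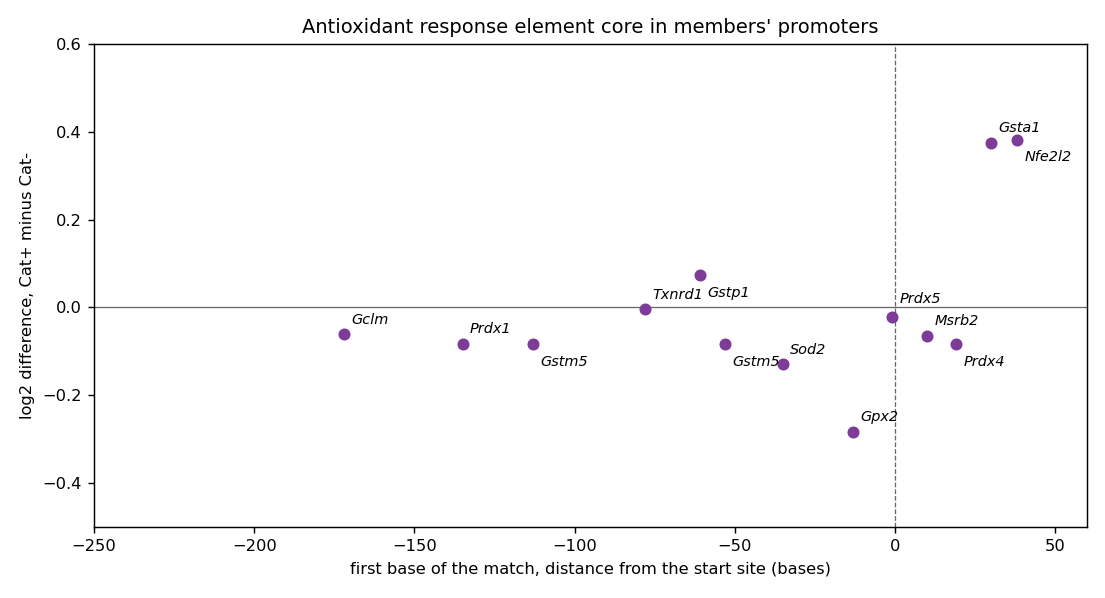
Each point is a match to the antioxidant response element core, with its distance in bases from the start site on the x axis and the log2 difference, Cat+ minus Cat-, of that gene on the y axis; 13 matches in 12 genes are drawn, and *Gstm5* has 2. Most points lie between -0.13 and 0.07, with *Gpx2* below them and *Gsta1* and *Nfe2l2* above.

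Across the 45 genes the levels in Cat+ and Cat- lay close together. The median log2 difference was -0.005, and over all genes it was also -0.005. In Cat+, 23 members were lower and 22 higher; 51.1% of the members and 51.2% of all genes were lower. By the study's size rule, a fold change under 0.5 or over 2, no member passed, against 0.308% of all genes on the low side and 0.0055% on the high side. At 1.5-fold, 2 members (1 after quantile normalization) were lower and none was higher, with backgrounds of 0.991% and 0.204%. A milder size was a brighter sample more than 25% above the dimmer, or 0.32 on the log2 scale. By it, 4 members, or 8.89%, were lower, with a background of 5.39%, and 3 members, or 6.67%, were higher, with a background of 3.36%. Both directions together gave 15.6% of the members and 8.75% of all genes. In 41 members the brighter sample lay at or above its array's median, and over all such genes the backgrounds at 25% were 7.55% lower and 4.2% higher. The 7 members over 25% apart were *Gss*, *Gpx1*, *Keap1* and *Prdx2* on the low side and *Txnip*, *Nfe2l2* and *Gsta1* on the high side. Of the 45 differences, 31 were within the SD of 0.17 set out above, beside 68.4% of all genes.

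**Figure D2:**
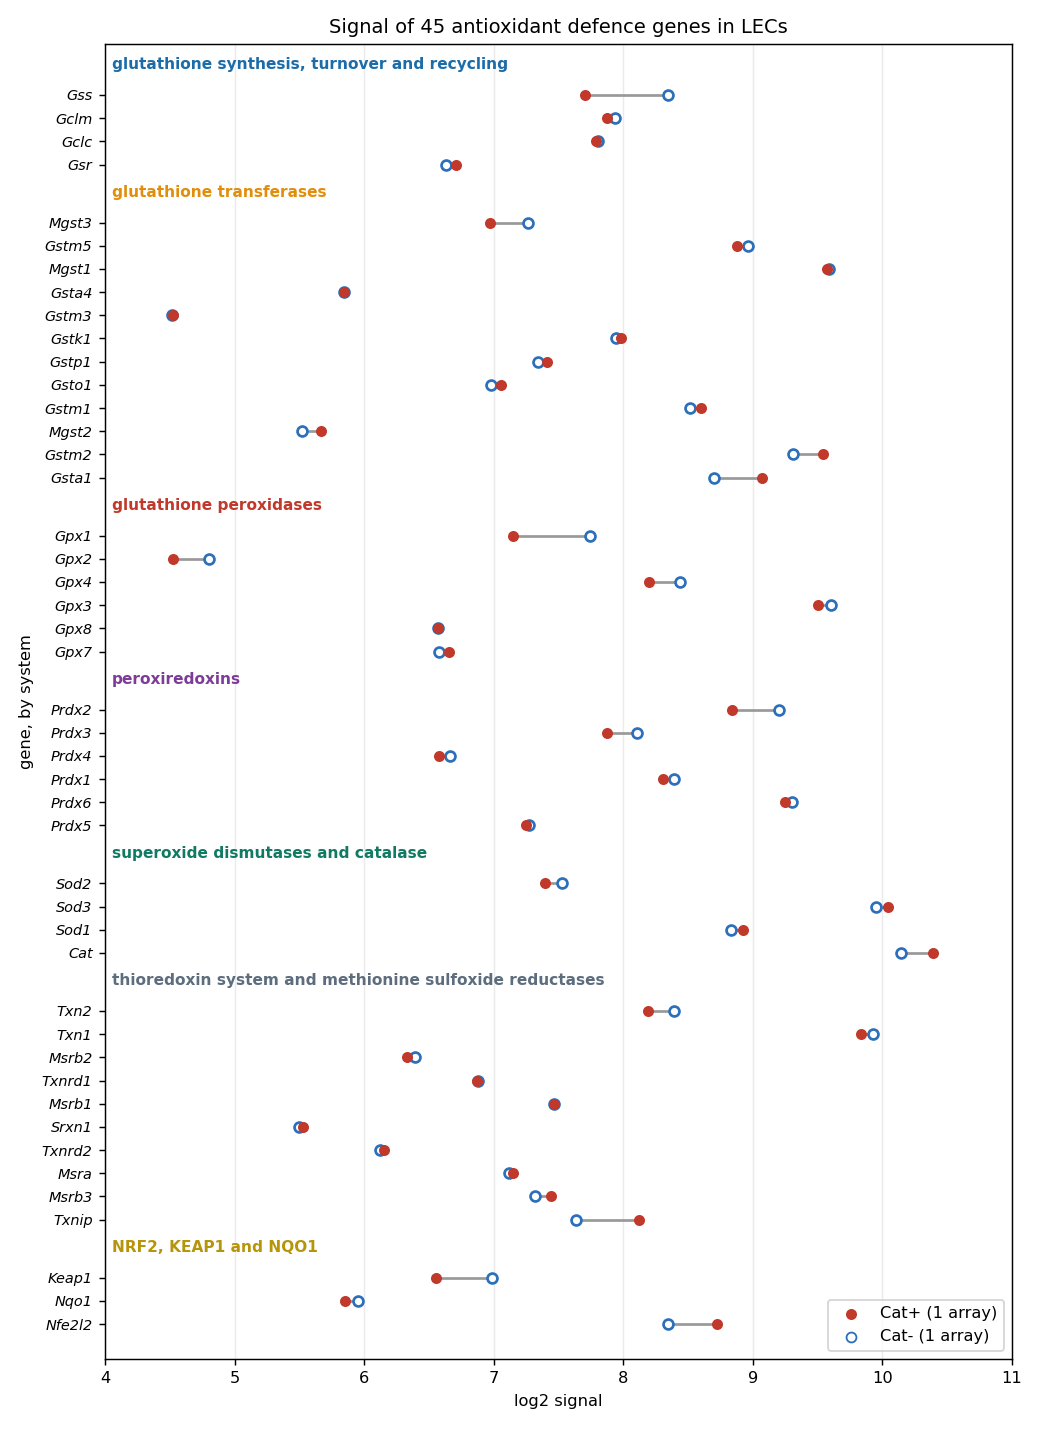
Log2 signal of each measured member in the Cat+ array (filled) and the Cat- array (open), 1 array each, with genes grouped by system and ordered by difference. Most pairs of points nearly touch, and the longest lines belong to *Gss*, *Gpx1*, *Txnip*, *Keap1*, *Nfe2l2*, *Gsta1* and *Prdx2*.

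In the synthesis of glutathione, the last step stood apart from the first. *Gss*, the glutathione synthetase that adds glycine, had log2 signals of 7.70 in Cat+ against 8.34 in Cat-, a log2 difference of -0.64 and the lowest of all members. It was the gene with rank 135 from the lowest among 18166. The first step is carried out by glutamate-cysteine ligase, which sets the rate. Its catalytic subunit *Gclc* had log2 signals of 7.79 in Cat+ against 7.80 in Cat-, a fold change of 0.993. Its modifier subunit *Gclm* had a fold change of 0.958. *Gsr*, the glutathione reductase, had log2 signals of 6.71 in Cat+ against 6.63 in Cat-, a fold change of 1.05. Only *Gss* of these 4 measured genes was over 25% apart. For *Ggct*, which releases oxoproline from gamma-glutamyl peptides, 2 probe sets shared with *Ggctl1* held identical values of 6.31 in Cat+ against 6.85 in Cat-, a fold change of 0.686 that cannot be given to either gene.

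Among the glutathione peroxidases, *Gpx1* was the lowest. *Gpx1*, the cytosolic and mitochondrial enzyme that reduces hydrogen peroxide, had log2 signals of 7.14 in Cat+ against 7.74 in Cat-, a log2 difference of -0.60 and rank 169 from the lowest. *Gpx4*, which reduces phospholipid hydroperoxides in membranes, had 8.20 in Cat+ against 8.43 in Cat-, a fold change of 0.849. *Gpx3*, the secreted enzyme, had a log2 difference of -0.10 and a fold change of 0.933. Those 3 genes were all lower in Cat+, but only *Gpx1* was over 25% apart. *Gpx2*, known from the gut epithelium, had 4.52 in Cat+ against 4.80 in Cat-, both under the median of the array. *Gpx7* and *Gpx8*, of the endoplasmic reticulum, had log2 differences of 0.08 and 0.00. Over the 6 peroxidase genes the median was -0.17, and it was -0.10 over those reaching the array median and -0.07 with dim signals set to a floor at the 20th percentile.

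The promoters of *Gss* and *Gpx1* are shown, as these are the 2 lowest members. Neither holds the element core searched above. Capitals mark the 50 bases from the start site on.

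Gss, chr3:164538257-164538556, minus strand: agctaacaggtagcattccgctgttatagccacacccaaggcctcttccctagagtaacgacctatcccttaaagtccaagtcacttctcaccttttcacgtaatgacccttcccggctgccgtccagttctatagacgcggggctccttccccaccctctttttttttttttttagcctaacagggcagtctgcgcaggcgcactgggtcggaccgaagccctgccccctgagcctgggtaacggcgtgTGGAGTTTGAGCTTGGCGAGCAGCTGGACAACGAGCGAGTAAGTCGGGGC
Gpx1, chr8:117905212-117905511, plus strand: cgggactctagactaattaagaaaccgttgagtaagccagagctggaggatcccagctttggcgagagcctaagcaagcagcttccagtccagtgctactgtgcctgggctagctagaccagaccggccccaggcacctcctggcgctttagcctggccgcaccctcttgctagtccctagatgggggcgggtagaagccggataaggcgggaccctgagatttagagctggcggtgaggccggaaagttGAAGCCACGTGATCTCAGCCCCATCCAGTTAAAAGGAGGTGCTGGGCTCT

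The peroxiredoxins, which reduce peroxides through a reactive cysteine, were all lower in Cat+ by small amounts, except that *Prdx5* was higher under quantile normalization. Their median log2 difference was -0.08, and 51.2% of all genes were lower. *Prdx2*, the cytosolic enzyme that is very abundant in red blood cells, had log2 signals of 8.84 in Cat+ against 9.20 in Cat-, a fold change of 0.775. *Prdx3*, the mitochondrial enzyme, had 7.87 in Cat+ against 8.10 in Cat-, a fold change of 0.853. Only *Prdx2* was over 25% apart, and *Prdx2* and *Prdx3* alone were beyond the SD between probe sets. *Prdx1* of the cytosol and *Prdx4* of the endoplasmic reticulum each had a fold change of 0.943. *Prdx5*, found in several compartments, was at 0.984. *Prdx6*, which also has phospholipase activity, had log2 signals of 9.25 in Cat+ against 9.31 in Cat-, a difference smaller than that SD.

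Among enzymes that act on superoxide and on bulk hydrogen peroxide, 3 of 4 genes were higher in Cat+, while 48.8% of all genes were. Only *Cat* was beyond the SD between probe sets. *Cat*, which encodes catalase of the peroxisome, had log2 signals of 10.39 in Cat+ against 10.14 in Cat-, a fold change of 1.18. *Sod1*, the cytosolic copper and zinc superoxide dismutase, had 8.92 in Cat+ against 8.83 in Cat-. *Sod3*, the extracellular dismutase, had 10.04 in Cat+ against 9.95 in Cat-. Both had a fold change of 1.07. *Sod2*, the manganese dismutase of mitochondria, had 7.40 in Cat+ against 7.53 in Cat-, a fold change of 0.914. None of the 4 was over 25% apart.

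Red blood cells hold much catalase, SOD1, GPX1 and peroxiredoxin 2, so markers of these cells were read beside them. All 5 measured markers were lower in Cat+, beside 51.2% of all genes. The summed linear signal of the 5 was 212 in Cat+ against 258 in Cat-, and 3 of them were under the median of each array. *Hbb-b1*, a beta globin, had log2 signals of 5.82 in Cat+ against 6.42 in Cat-, a log2 difference of -0.60. A probe set that names *Hbb*, *Hbbl1* and *Hbb-bs* had 5.90 in Cat+ against 6.85 in Cat-. *Ahsp*, the chaperone of alpha globin, and *Slc4a1*, the red cell anion exchanger, had signals from 4.93 to 5.17 in both samples, under the median of each array. *Hba-a1*, an alpha globin, had 4.95 in Cat+ against 5.19 in Cat-, also under the median of each array. *Epor* had a fold change of 0.891. *Gpx1* and *Prdx2* were lower in Cat+, and *Cat* and *Sod1* were higher. The part of red blood cells in these differences was not tested, nor was that of fiber cells, whose 14 markers were lower. That of macrophages and leukocytes was not tested either. With a summed linear signal of 2060 in Cat+ against 1485 in Cat-, their 12 markers were all higher, beside 48.8% of all genes. Of 11 measured retina markers, 8 were higher and 3 lower. Their summed linear signal was 2698 in Cat+ against 2091 in Cat-, and the part of retina was not tested.

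**Figure D3:**
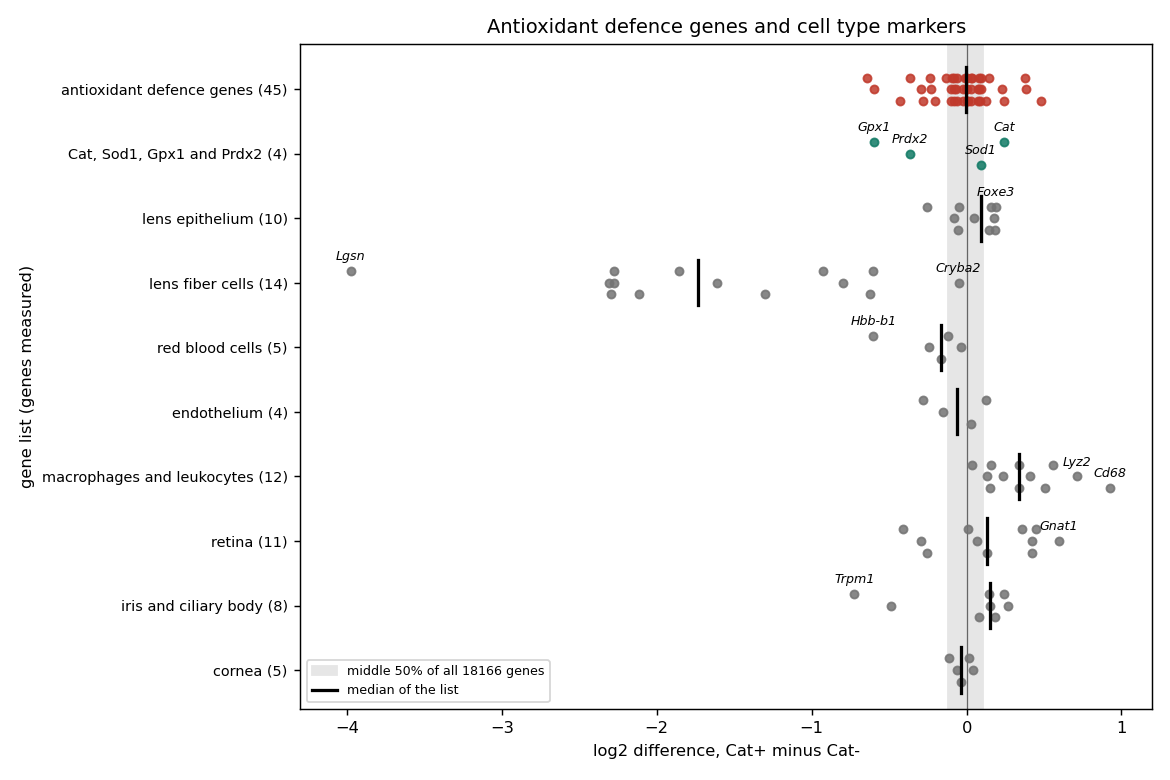
Log2 difference, Cat+ minus Cat-, on the x axis for each gene of the lists named on the y axis; black lines are list medians, and the grey band is the middle 50% of all 18166 genes. The second row repeats the 4 members that red blood cells hold in quantity. The antioxidant defence genes sit around 0, the lens fiber markers reach to -3.98 for *Lgsn*, and the macrophage markers reach to 0.92 for *Cd68*.

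The glutathione transferases showed 9 genes higher and 3 lower in Cat+ of 12 measured, while 48.8% of all genes were higher. *Gsta4* and *Gstm3* lay so near 0 that their sign turned with the scaling. Of the 9, only *Gsta1* and *Gstm2* were beyond the SD between probe sets. *Gsta1*, an alpha class enzyme that handles lipid peroxidation products, had log2 signals of 9.07 in Cat+ against 8.70 in Cat-, a log2 difference of 0.38, and was the only transferase over 25% apart. *Gsta4*, which acts on 4-hydroxynonenal, had a log2 difference of 0.00. Among the mu class, *Gstm2* had 9.54 in Cat+ against 9.31 in Cat-, a fold change of 1.17. *Gstm1* was at 1.06 and *Gstm5* at 0.944. *Gstm3* had a signal of 4.52 in both samples, under the median of each array. Transferases of the same class are similar in sequence, and cross-hybridization between them was not measured here. Of the cytosolic enzymes of other classes, *Gstp1* was at 1.05 and *Gsto1* at 1.06, and *Gstk1*, of mitochondria and peroxisomes, was at 1.03. The membrane-bound *Mgst3* had 6.97 in Cat+ against 7.27 in Cat-, a fold change of 0.815, and was the lowest transferase. *Mgst1* was at 0.986, with log2 signals of 9.57 in Cat+ against 9.59 in Cat-, and *Mgst2* was at 1.11 with signals under the median of each array. For *Gstt1*, the brighter probe set shared with *Gstt3* had a fold change of 1.05 and the dimmer 0.876.

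In the thioredoxin system, *Txnip* was the highest of all members. *Txnip*, which binds thioredoxin and lowers glucose uptake, had log2 signals of 8.12 in Cat+ against 7.63 in Cat-, a log2 difference of 0.48. It held rank 102 from the highest among 18166 genes. *Txn1*, the thioredoxin of the cytosol that it binds, had 9.83 in Cat+ against 9.92 in Cat-, a fold change of 0.938. *Txn2*, the mitochondrial thioredoxin, had 8.19 in Cat+ against 8.39 in Cat-, a fold change of 0.869. The reductases of both were level between the samples, with *Txnrd1* at 0.997 and *Txnrd2* at 1.02. *Srxn1*, the sulfiredoxin that restores overoxidized peroxiredoxins, was at 1.02 with signals under the array median. The methionine sulfoxide reductases, which repair oxidized methionine with thioredoxin, ran from 0.956 for *Msrb2* to 1.09 for *Msrb3*. *Msra* was at 1.02 and *Msrb1*, a selenoprotein, had a log2 difference of 0.00.

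NRF2 and its inhibitor differed in opposite directions. *Nfe2l2* had log2 signals of 8.72 in Cat+ against 8.34 in Cat-, a log2 difference of 0.38 and rank 311 from the highest. *Keap1* had 6.56 in Cat+ against 6.99 in Cat-, a log2 difference of -0.43 and rank 429 from the lowest. Both were over 25% apart. *Nqo1*, the quinone reductase widely used as a readout of NRF2, had 5.85 in Cat+ against 5.95 in Cat-, a fold change of 0.934. Messenger RNA levels do not measure the amount or activity of NRF2 protein.

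**Figure D4:**
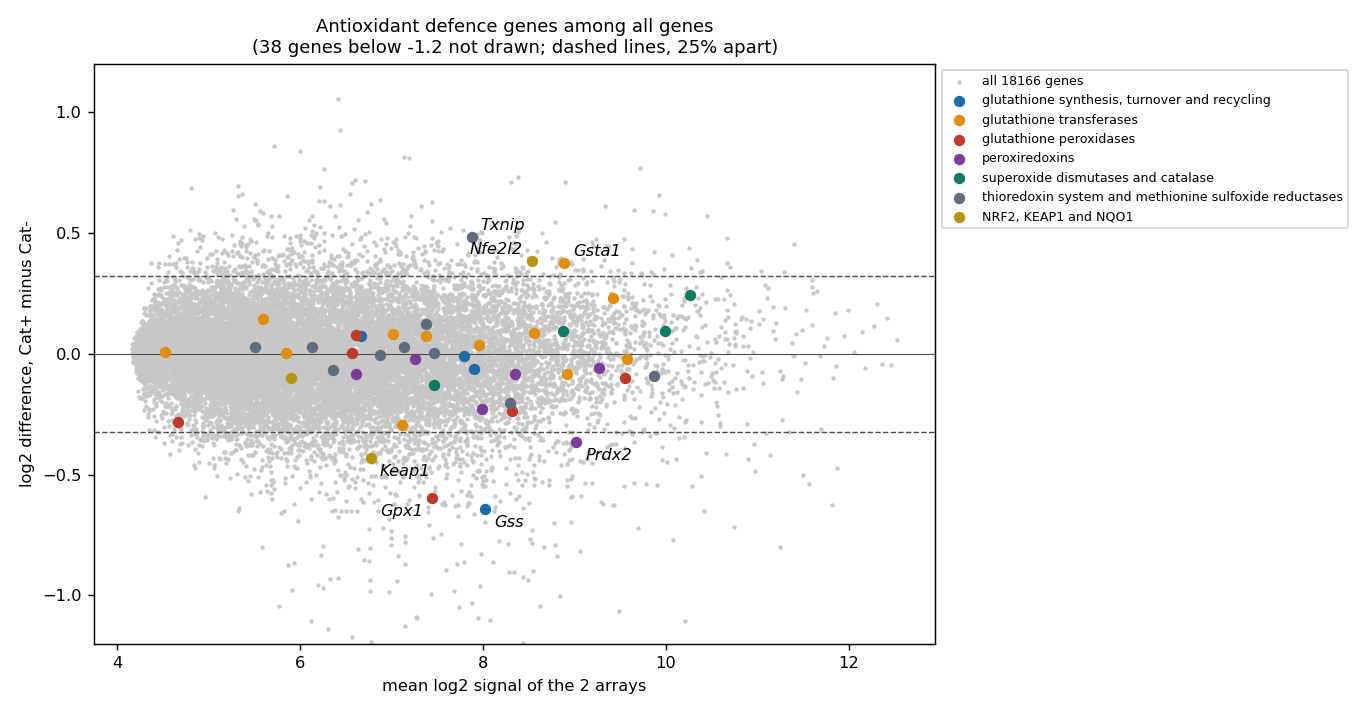
Log2 difference, Cat+ minus Cat-, on the y axis against the mean log2 signal of the 2 arrays on the x axis, for all 18166 genes (grey) and the 45 members (coloured by system). Dashed lines mark a difference of 25%, 38 genes below -1.2 are not drawn, and the 7 named members lie outside the dashed lines.

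Neighbouring genes of these pathways were read from 7 lists of 121 genes, of which 108 were measured. In Cat+, by the 25% size, 13 of them, or 12%, were lower and 2, or 1.85%, were higher. The shares of all genes were 5.39% and 3.36%. The 108 had a median log2 difference of -0.05, and 63 of them, or 58.3%, were lower, beside 51.2% of all genes. The list of other NRF2 pathway and target genes held 15 lower and 9 higher of 24 measured. *Hmox1*, the heme oxygenase, had log2 signals of 5.80 in Cat+ against 7.59 in Cat-, the only gene of the 108 past 2-fold. The study listed *Hmox1* at 0.289 on these same arrays, so its direction was known when the list was made. *Ftl1*, the ferritin light chain, had 11.64 in Cat+ against 12.11 in Cat-, a fold change of 0.720. *Cbr1*, a carbonyl reductase, was at 0.651 by its brightest probe set and at 1.09 and 1.31 by 2 others, so that its probe sets disagree. Both *Hmox1* and *Cbr1* are counted among the 13 lower genes above. No gene of that list was higher by the 25% size.

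Supply of cysteine and of NADPH bears on the same enzymes. *Slc7a11*, which brings cystine into the cell, had log2 signals of 9.02 in Cat+ against 8.65 in Cat-, a log2 difference of 0.37. *Abcc1*, which exports glutathione and its conjugates, had 6.57 in Cat+ against 7.07 in Cat-, a fold change of 0.705, and *Slc25a39*, which carries glutathione into mitochondria, was at 0.715. Of 13 measured genes of uptake and export, 8 were lower and 5 higher, and 51.2% of all genes were lower. Among 11 genes of glutathione breakdown and cysteine supply, 9 were lower, with a median log2 difference of -0.15. *Chac2*, which cleaves glutathione in the cytosol, had 6.42 in Cat+ against 6.95 in Cat-, a fold change of 0.696. *Chac1*, of the same family, was at 0.807 and *Ggt7* at 0.816.

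*Mthfd2*, a mitochondrial enzyme of folate metabolism, had log2 signals of 5.77 in Cat+ against 6.74 in Cat-, and its second probe set had 5.48 in Cat+ against 6.43 in Cat-. The fold changes were 0.511 and 0.519. *Me1*, the cytosolic malic enzyme that yields NADPH, had 7.25 in Cat+ against 7.87 in Cat-, a fold change of 0.651. Both stood apart from the other 10 measured genes of NADPH supply, which were less than 25% apart, and *Idh2* was the highest at 1.12. *Pgls*, *Taldo1* and *Tkt*, enzymes of the pentose phosphate pathway, had log2 differences between 0.01 and 0.15.

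Of 18 other oxidoreductases with a thioredoxin fold, 9 were lower and 9 higher, and 3, or 16.7%, were lower by the 25% size, beside 5.39% of all genes. *Txndc12*, of the endoplasmic reticulum, had log2 signals of 8.71 in Cat+ against 9.23 in Cat-, a fold change of 0.697. *Nxn*, nucleoredoxin, was at 0.727 and *Glrx3*, a glutaredoxin, at 0.797. Of 17 genes of selenoprotein synthesis and other selenoproteins, *Selenop*, the selenium carrier, had 7.73 in Cat+ against 7.29 in Cat-, a fold change of 1.36, and *Selenow* was at 0.768 and *Selenoo* at 0.819. Of 13 other transferases and related membrane enzymes, *Gsto2* was the lowest, with a log2 difference of -0.32, and *Alox5ap*, which serves leukotriene synthesis in leukocytes, the highest at 1.23, and *Gstcd* was at 1.14.

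**Figure D5:**
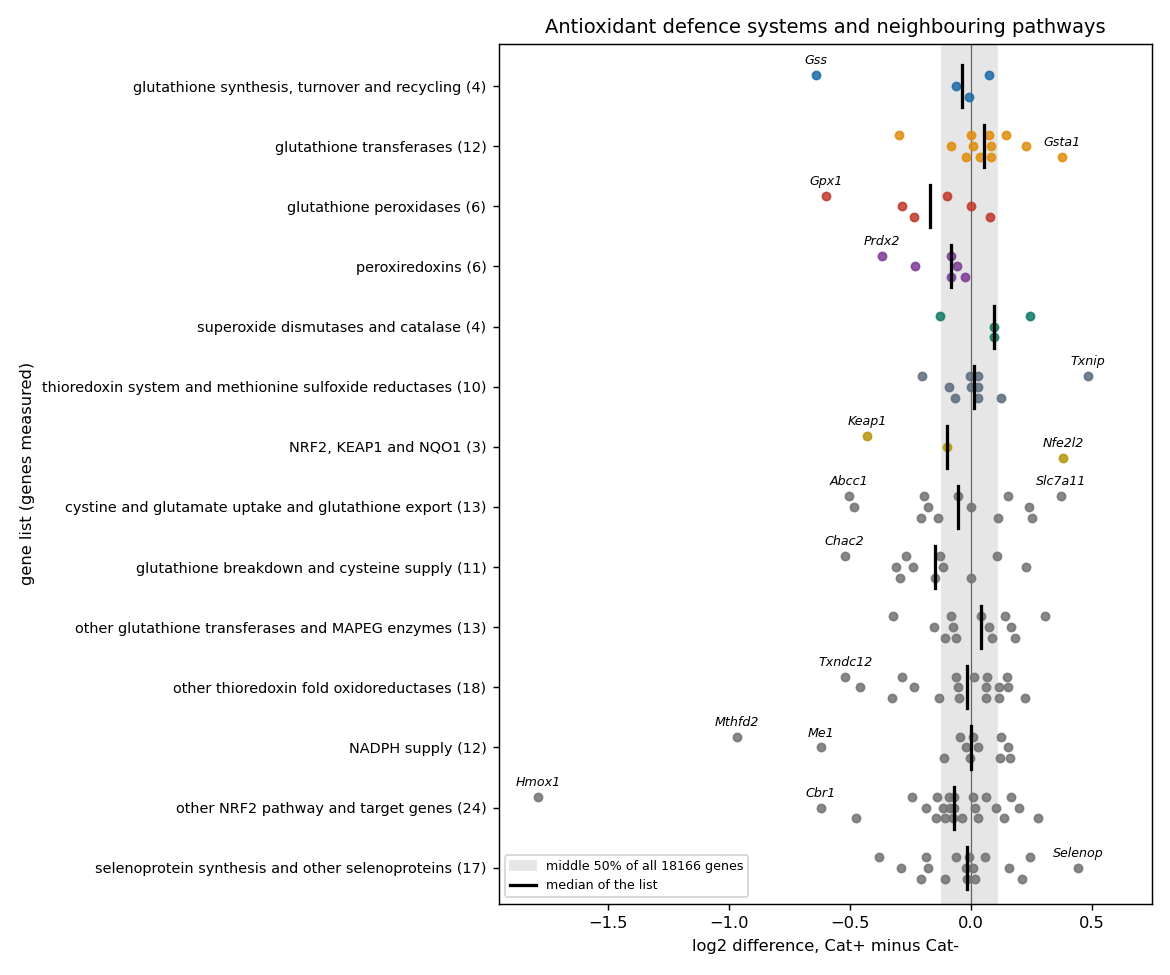
Log2 difference, Cat+ minus Cat-, on the x axis for each gene of the 7 member systems (coloured) and the 7 neighbouring lists (grey), with list medians as black lines and the middle 50% of all 18166 genes as a grey band. All list medians lie between -0.17 and 0.09, and *Hmox1*, *Mthfd2*, *Gss*, *Me1*, *Cbr1* and *Gpx1* are the lowest points.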

How the data were processed

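Total RNA of LECs was labelled with a kit for small inputs and hybridized to 1 array per group. The authors scaled the arrays singly, by a specific control or the average intensity, and deposited a log2 signal for each of 29870 probe sets. How background was corrected and probes were summarized is not stated in these sources. Probe sets were named from the platform annotation, in which 18511 name 1 gene, 575 several and 10784 none, and 18394 of the first matched a RefSeq gene of GRCr8 with 0 changed symbols. A gene took its probe set with the highest mean signal, which gave 18166 genes. The log2 difference is Cat+ minus Cat-, with no filter. Summed signals are on the linear scale.

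The members, the systems, the pathway and marker lists and the sizes of 25% and 1.5-fold were chosen with earlier results of these data known; 2-fold is the study's. Every member is named. Of a pathway list, up to 3 genes with the largest difference are named among those whose brighter sample reached the array median. *Pgls*, *Taldo1*, *Tkt*, *Itga6*, *Hba-a1*, *Ahsp*, *Slc4a1*, *Epor* and the *Hbb* probe set were named after values were seen. Alternatives of scaling were centring, quantile normalization and loess with a span of 0.3. Others were filters at the median or the 20th percentile, a floor at the 20th percentile, other choices of probe set and other sizes. With 1 array per group no test was run, and the number of arrays limits the precision. Counting of genes past a size was tested on simulated data. Its shifts were larger than the sizes used here and its noise smaller than the SD between probe sets. Counting at 25% was not tested by it. Calculations ran in Python 3.11.15 with pandas 2.3.3 and NumPy 2.4.6, loess in statsmodels 0.14.6 and plots in matplotlib 3.10.9. RT-qPCR was not analysed here.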

Additional observations from a re-analysis of the deposited data

How the results depend on the processing

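The 7 members over 25% apart kept their direction and stayed over 25% apart under all 9 alternatives of scaling, filtering, floor and probe set. Most of these alternatives could hardly change them. The filters, the floor and the choices of probe set left the values of these 7 as they were. Centring shifted every gene by the same small amount. Only quantile normalization and loess could move genes by different amounts. The count of members over 1.5-fold lower, 2 as reported, was 1 after quantile normalization, where *Gpx1* had a log2 difference of -0.58, and was 0 at a threshold of 2-fold and 4 at 25%. The count over 1.5-fold higher, 0 as reported, was 3 at 25%. No other count moved by over 1.5 times, and no median of a system moved by more than the SD between probe sets. The median of the glutathione peroxidases, -0.17 as reported, was -0.07 with the floor, where *Gpx2* moved to -0.05, and -0.10 over genes reaching the array median. Medians close to 0 moved by more than 1.5 times too, and that of all members, -0.005, was 0.005 after quantile normalization. The sign of 7 members close to 0, *Gclc*, *Gsta4*, *Gstm3*, *Gpx8*, *Prdx5*, *Txnrd1* and *Msrb1*, depended on the setting. With 1 array per group no replicate could be left out. No paired analysis was possible because each group has 1 sample.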

Other observations

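Members that are selenoproteins were grouped after their values were seen. Of these 7, *Gpx1*, *Gpx2*, *Gpx3*, *Gpx4*, *Txnrd1*, *Txnrd2* and *Msrb1*, 5 were lower in Cat+ (*Txnrd1* turned sign with the scaling), with a median log2 difference of -0.10 and a range from -0.60 to 0.03. Over all genes 51.2% were lower in Cat+.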
